A study of Mus musculus with 6 samples.

Results

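The BCL2 family genes described here are 10 genes of the family that are not classic p53 targets, chosen by symbol: the survival genes Bcl2, Bcl2l1, Mcl1, Bcl2a1b and Bcl2a1d and the death genes Bcl2l11, Bad, Bid, Bmf and Bak1. All 10 were found among the 18046 genes listed in each library. The cells were naive CD4+ T cells from the spleen of C57BL/6 mice, with an age of 3 weeks in the labels. In culture they were activated through CD3 and CD28 for 3 days while being polarized towards T helper 1 (Th1) cells. Both groups had this activation in common, and they differed in the agent added, a vehicle (n = 3 libraries) or 20 µM LPC (n = 3 libraries). LPC is not spelled out in the labels and the vehicle is not named, and nothing there tells if replicate libraries were made from different mice or wells. The p-values therefore measure only the spread between these libraries, which may be technical.

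BCL2 family proteins decide whether the outer membrane of the mitochondrion stays closed. BCL2, BCL-XL (from Bcl2l1), MCL1 and A1 (from the Bcl2a1 genes) hold it closed, BAK (from Bak1) and its relative BAX form the pores that open it, and the BH3-only proteins BIM (from Bcl2l11), BMF, BAD and BID either engage the pore formers or occupy the survival proteins. In T cells, BCL2 is maintained by interleukin-7 signals, BCL-XL and A1 are induced by activation, and BIM is the main killer at the end of a response.

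Expression was given as FPKM (fragments per kilobase of transcript, scaled to the size of the library), which takes account of gene length, so levels of different genes can be compared. Changes are differences of log2(FPKM + 1), LPC minus vehicle, from limma with Benjamini-Hochberg adjustment over 10138 tested genes, and a gene was said to rise or fall at an adjusted p under 0.05. Of all tested genes 13.7% passed, 5.82% higher and 7.91% lower with LPC. FPKM hold no read totals, and the steps between low values gave an estimated depth that differed little between libraries (19.00 to 19.50 in units of 1e6 reads). Summed over all listed genes, FPKM came to 575091, 556561 and 588274 in vehicle replicates 1 to 3. In LPC replicates 1 to 3 the sums were 583242, 562046 and 641026, so LPC replicate 3 had the highest. On the first principal component (58.4% of the variance) the vehicle libraries lay between -15.76 and -8.43 and the LPC libraries between 3.03 and 21.10, with LPC replicate 3 farthest out. Across 10018 genes with a known length and GC share, the signed change went with GC share at r = 0.26 and with the log2 of transcript length at r = -0.29. These correlations are across genes, which are not independent replicates. All 8 T cell markers were listed, and their summed level was 1287 to 1305 FPKM with vehicle and 1265 to 1337 FPKM with LPC, although Trat1 among them fell (log2 change -0.83, limma adjusted p = 0.0019). Of the CD8 genes, Cd8a stayed at or under 0.33 FPKM, while Cd8b1 was at 13.35 to 14.19 FPKM with vehicle and 10.57 to 12.55 FPKM with LPC. In every library 5 of 6 B cell, 6 of 7 macrophage and monocyte, 4 of 5 listed neutrophil, 5 of 6 dendritic cell and 3 of 4 natural killer cell markers stayed under 1 FPKM. The exceptions were Ebf1, which rose (0.42, adjusted p = 0.0362), Cd68 and Cxcr2, which did not pass, and Zbtb46 (-0.68, adjusted p = 0.00139) and Eomes (-0.49, adjusted p = 0.0146), which fell. The part of such cells in the results was not tested. In such bulk samples, fewer cells of a type and less RNA per cell cannot be told apart.

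**Figure D1:**
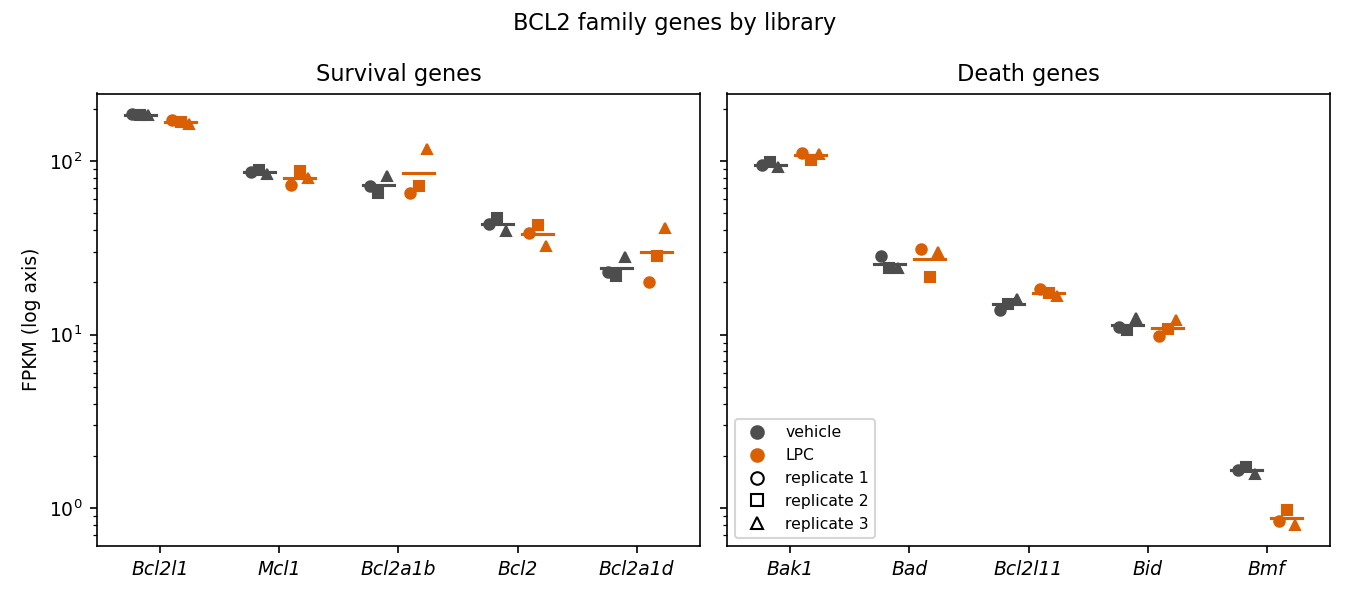
FPKM of each BCL2 family gene in the 3 vehicle (grey) and 3 LPC (orange) libraries on a log axis, with replicates as circles, squares and triangles and a line at each group's mean. Bcl2l1 is the highest gene in every library, Bmf the lowest, and LPC replicate 3 stands above the other libraries for Bcl2a1b and Bcl2a1d.

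Bmf (chr2:118528757-118549686, minus strand, GRCm38.p6 as for all coordinates here) was the only member that passed the test, and it fell. The gene encodes a BH3-only protein held at the cytoskeleton until stress or loss of attachment releases it. Bmf was listed at 1.66, 1.73 and 1.58 FPKM in vehicle replicates 1 to 3 and at 0.85, 0.98 and 0.80 FPKM in LPC replicates 1 to 3. All LPC libraries lay under all vehicle libraries. The mean went from 1.66 ± 0.0751 to 0.877 ± 0.0929 FPKM (SD, n = 3 each), a difference of -47.1%, and the log2 change was -0.50 (SE 0.10, 95% interval -0.71 to -0.30, limma adjusted p = 0.00568). On this scale the change of so low a gene is understated, and with a pseudocount of 0.1 it was -0.85. Bmf passed the filter on low values (1 FPKM or more in 3 or more libraries) through its vehicle libraries alone, and a gene admitted in this way had to differ between the groups. Without any filter, where 1.06% of 18046 genes passed, Bmf passed at a limma adjusted p of 0.0387. That fit gave it an SE of 0.05, against 0.10 in the main fit. The SD between libraries was 4.53% of the mean with vehicle and 10.6% with LPC, to be set against the counting error given below. Bmf passed in all 12 alternative fits that tested it, with a log2 change of -0.85 to -0.42. It was not tested where a mean of 5 FPKM was required. Apart from the fit without a filter, these fits kept the genes admitted on all 6 libraries. All of them, that fit included, reused the same libraries, so none is independent support. With a vehicle library left out, Bmf would not have reached the filter had it been applied again. From a mean transcript length of 3860 bases and the estimated depth, its values stand for roughly 119 to 129 fragments per vehicle library and 59 to 73 per LPC library, and counting error alone would then be 8.8% to 13.1% of a value. Both estimates used full transcript lengths, and effective lengths, which are not known here, would move them.

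Bcl2l11 (chr2:128126038-128162547, plus strand), which encodes BIM, was listed in the opposite order to Bmf and did not pass. It stood at 13.80, 14.93 and 16.05 FPKM with vehicle and at 18.20, 17.46 and 16.57 FPKM with LPC. The groups did not overlap, but the highest vehicle and the lowest LPC library were close. The log2 change was 0.21 (SE 0.09, 95% interval 0.01 to 0.41, limma adjusted p = 0.148). When each library's trend with GC share and length was taken out, it was 0.28 and passed (limma adjusted p = 0.021), in a fit where 23.2% of 10018 genes passed. The deposited data list 9 transcripts for Bcl2l11, but FPKM were given per gene, so the isoforms of BIM, which differ in killing strength, were not separated.

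Bcl2l11 and Bmf have both been described as targets of FOXO transcription factors, so the bases before their outermost RefSeq start sites are shown (GRCm38.p6). The first is chr2:128125788-128126037 on the plus strand and the second chr2:118549687-118549936 on the minus strand. Each is written 5′ to 3′ in the direction of transcription, with the FOXO letters GTAAACA, searched on both strands, in capitals.
Bcl2l11: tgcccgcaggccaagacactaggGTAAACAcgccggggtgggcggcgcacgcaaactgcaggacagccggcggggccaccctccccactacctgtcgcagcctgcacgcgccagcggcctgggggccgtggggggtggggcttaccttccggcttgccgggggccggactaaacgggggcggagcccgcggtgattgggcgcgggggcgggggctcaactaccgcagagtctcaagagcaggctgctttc
Bmf: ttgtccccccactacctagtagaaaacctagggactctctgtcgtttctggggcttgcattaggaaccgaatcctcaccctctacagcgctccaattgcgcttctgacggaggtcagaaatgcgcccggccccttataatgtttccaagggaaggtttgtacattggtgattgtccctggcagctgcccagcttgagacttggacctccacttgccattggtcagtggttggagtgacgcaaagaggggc
The letters begin 227 bases before the Bcl2l11 start and are not in the Bmf window. They occur in 3.17% of 32851 windows of 250 bases before RefSeq start sites and in 1 of the 16 windows of the 10 members. The STAT letters TTCNNNGAA (7.02% of all windows) were in 0 of the 16, and the NF-kB motif (4.65%, both strands) was in 1 window each of Bcl2l1 and Mcl1. These matches are descriptions of letters, not of binding.

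The 3 other death genes did not pass. Bak1 (chr17:27019812-27028627, minus strand), the pore former, was listed at 94.92, 97.93 and 91.88 FPKM with vehicle and at 111.04, 101.74 and 110.11 FPKM with LPC. All LPC libraries lay above all vehicle libraries, with a log2 change of 0.18 (SE 0.08, limma adjusted p = 0.174). Bad (chr19:6941861-6951905, plus strand), a BH3-only gene whose protein is silenced by phosphorylation when growth factors are present, was listed at 28.44, 24.17 and 24.01 FPKM with vehicle and at 31.05, 21.45 and 29.69 FPKM with LPC. LPC replicate 2 was the lowest of all libraries and LPC replicates 1 and 3 the highest, so the groups overlapped (log2 change 0.08, 95% interval -0.19 to 0.36, adjusted p = 0.691). Bid (chr6:120893119-120917062, minus strand), whose product carries the death receptor signal to the mitochondrion once caspase-8 has cut it, was listed at 10.98, 10.63 and 12.41 FPKM with vehicle and at 9.84, 10.81 and 12.07 FPKM with LPC. Replicate 3 was the highest in both groups, and the groups overlapped (-0.05, interval -0.27 to 0.17, adjusted p = 0.768).

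Bcl2l1 (chr2:152758732-152833803, minus strand), the survival gene with the highest level, did not pass although its groups were apart. It was listed at 185.88, 183.69 and 183.34 FPKM with vehicle, a spread of 0.749% of the mean, and at 172.16, 167.56 and 162.21 FPKM with LPC. All LPC libraries lay under all vehicle libraries, and the difference of the means was -9.22%. The log2 change was -0.14 (SE 0.08, 95% interval -0.32 to 0.04, limma adjusted p = 0.283). With GC and length trends taken out Bcl2l1 was just past the threshold (-0.16, SE 0.05, limma adjusted p = 0.0495).

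Bcl2 (chr1:106538176-106714290, minus strand), the founding survival gene, was listed at 43.46, 46.72 and 39.34 FPKM with vehicle and at 38.56, 42.70 and 32.39 FPKM with LPC. The groups overlapped, and replicate 2 was the highest and replicate 3 the lowest in each. The log2 change was -0.19 (SE 0.11, 95% interval -0.42 to 0.04, limma adjusted p = 0.256). Without LPC replicate 3 it was -0.08, and with both trends taken out -0.06. The mean Bcl2 transcript is long, at 5016 bases. Mcl1 (chr3:95656944-95663179, plus strand), whose short-lived protein is needed by T cells at every stage, was listed at 86.26, 88.23 and 83.70 FPKM with vehicle and at 72.34, 86.94 and 80.02 FPKM with LPC. LPC replicate 2 lay among the vehicle libraries and LPC replicate 1 was the lowest (log2 change -0.11, interval -0.31 to 0.08, adjusted p = 0.429). Without LPC replicate 1 the Mcl1 change was -0.04, and with both trends taken out it was also -0.04.

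**Figure D2:**
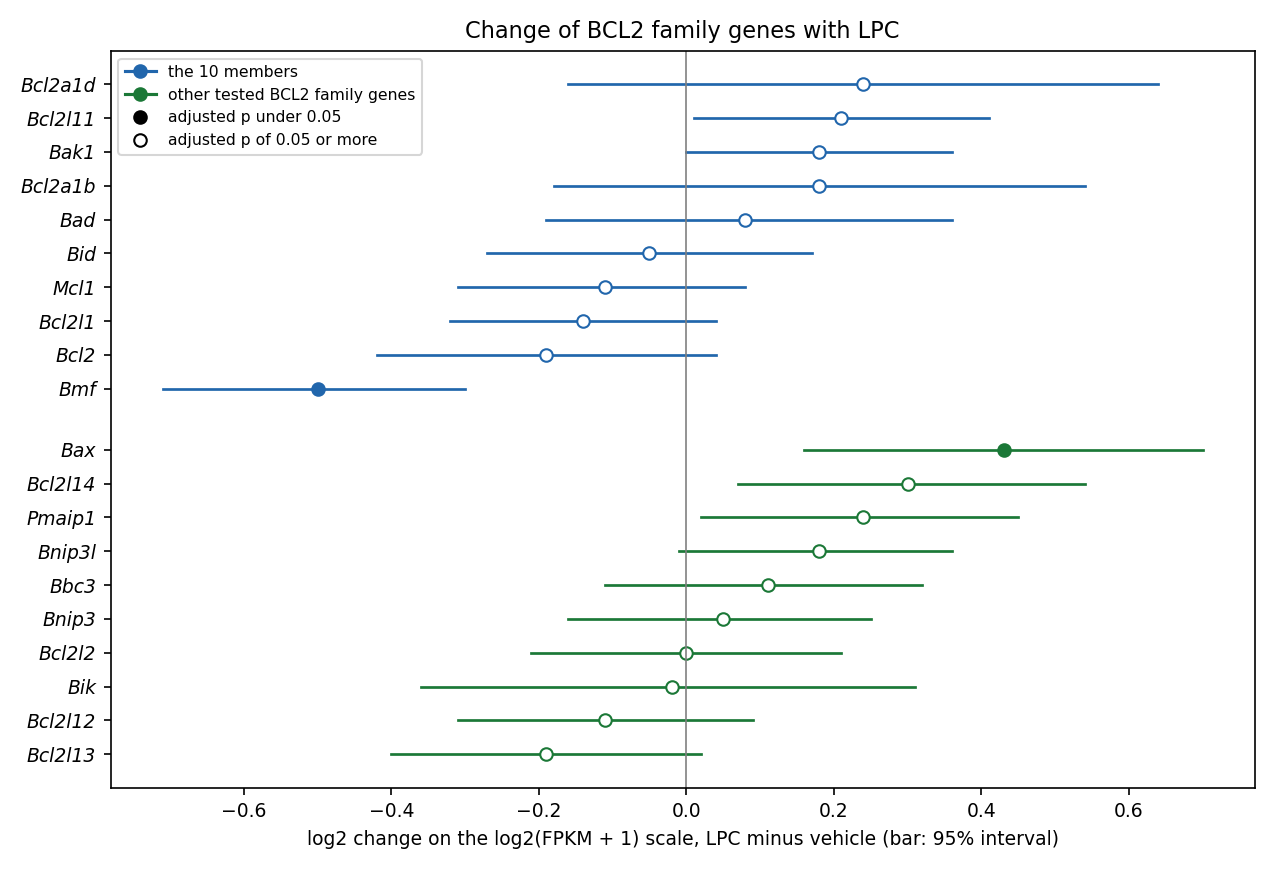
Log2 change (LPC minus vehicle, on the log2(FPKM + 1) scale) with its 95% interval for the 10 members (blue) and the 10 other tested BCL2 family genes (green), filled where the adjusted p was under 0.05. Bmf (-0.50) and, among the other genes, Bax (0.43) are the filled points.

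Bcl2a1b and Bcl2a1d are copies of the A1 gene, an NF-kB-driven survival gene that is multiplied in the mouse. They lie on chromosome 9, Bcl2a1b at chr9:89199273-89207838 on the plus strand and Bcl2a1d at chr9:88723288-88731850 on the minus strand (GRCm38.p6). The stretch before their start sites that both share is shown because it makes plain how alike the copies are. Capitals mark bases that differ between the copies or are missing in the other. The stretches are chr9:89199023-89199228 and chr9:88731851-88732050.
Bcl2a1b: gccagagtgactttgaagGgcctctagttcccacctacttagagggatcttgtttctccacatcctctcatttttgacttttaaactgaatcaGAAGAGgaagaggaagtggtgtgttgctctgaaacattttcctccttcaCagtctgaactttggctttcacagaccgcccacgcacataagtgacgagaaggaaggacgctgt
Bcl2a1d: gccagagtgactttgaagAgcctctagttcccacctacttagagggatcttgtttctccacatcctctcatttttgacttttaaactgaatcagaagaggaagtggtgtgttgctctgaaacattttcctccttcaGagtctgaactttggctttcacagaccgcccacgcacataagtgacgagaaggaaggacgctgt
Of 206 aligned positions 198 (96.1%) were identical, with 2 substitutions and 6 bases that Bcl2a1d lacks. The transcripts were closer still, with 810 of 817 aligned positions (99.1%) identical. Of all 50-base windows, 57.6% of those in the Bcl2a1b transcript and 79.5% of those in the Bcl2a1d transcript occurred unaltered in another of the copies Bcl2a1a, Bcl2a1b and Bcl2a1d. The division of reads between the copies is therefore an estimate, and their separate values are uncertain.

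Neither A1 copy passed, and LPC replicate 3 set their means. Bcl2a1b was listed at 71.69, 65.20 and 81.40 FPKM with vehicle and at 65.57, 71.93 and 117.14 FPKM with LPC. Bcl2a1d was listed at 22.91, 21.81 and 28.06 FPKM with vehicle and at 20.08, 28.42 and 41.13 FPKM with LPC. LPC replicate 3 was the highest library for both, while LPC replicates 1 and 2 lay within or close to the vehicle range. The log2 changes were 0.18 for Bcl2a1b (SE 0.17, limma adjusted p = 0.50) and 0.24 for Bcl2a1d (SE 0.18, adjusted p = 0.40). Without LPC replicate 3 they were -0.08 and -0.01. The sum of both copies was 94.6, 87.0 and 109.5 FPKM with vehicle and 85.6, 100.4 and 158.3 FPKM with LPC. It differed by 0.20 on the log2 scale (two-sided exact permutation test, p = 0.7, n = 3 each, where the smallest possible p is 0.1), and by -0.06 without LPC replicate 3. Bcl2a1b made up 71.7% to 76.6% of the sum in every library. Bcl2a1a was listed at 0 in the vehicle libraries and at no more than 0.21 FPKM with LPC. Neutrophils also express A1. The 5 listed neutrophil markers summed to 1.61 to 2.50 FPKM with vehicle and 1.5 to 3.11 FPKM with LPC. Most of that sum was Cxcr2, at 1.5 to 2.41 FPKM with vehicle and 1.5 to 2.85 FPKM with LPC. The 4 others stayed under 1 FPKM in every library, and Elane was at 0 in all. The part of neutrophils in the A1 values was not tested.

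Of the 10 members 1 passed the test, against 13.7% of all tested genes, so the share of members called was near the background. The groups did not overlap for 4 members (Bmf, Bcl2l11, Bak1 and Bcl2l1), against 34.5% of all tested genes, which is again near the background. Both counts include Bmf, which passed the filter through its vehicle libraries alone. Overlap was read on FPKM as deposited, whose sum was highest in LPC replicate 3, and was not recomputed for the members under another scaling. At an unadjusted p under 0.05 there were 2 members, Bmf and Bcl2l11, against 30.1% of tested genes. The members' median log2 change was 0.02 and their median absolute change 0.18, against -0.04 and 0.15 over all tested genes. Leaving out any 1 library left the count of members called at 1, with the tested genes kept as chosen on all 6 libraries. Without a vehicle library Bmf would not reach the filter, so this count cannot show that the call is stable. Over all genes, leaving out vehicle replicate 1, vehicle replicate 2 or LPC replicate 1 brought the count from 1392 to 513, 566 and 702.

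**Figure D3:**
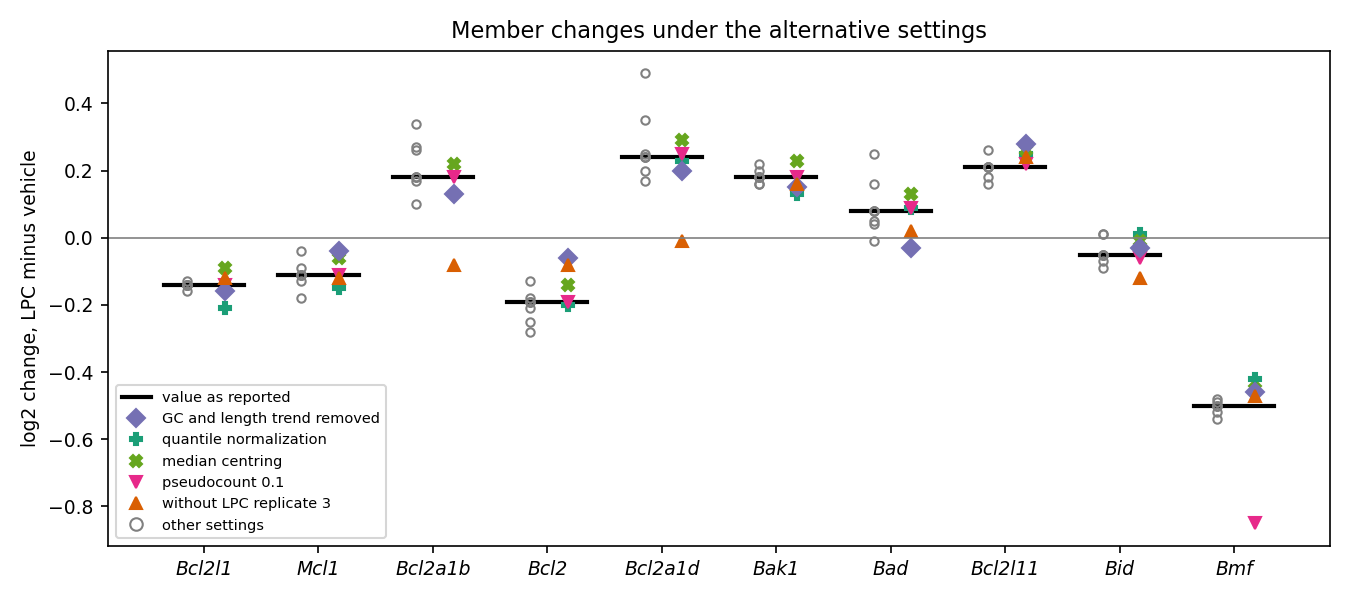
Log2 change of each member as reported (black line) and under the alternative settings (symbols), including the fit without LPC replicate 3 (orange triangle). Bmf stays below -0.40 throughout, and Bcl2a1b and Bcl2a1d are at -0.08 and -0.01 without LPC replicate 3.

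The order of levels was steady at its ends. With vehicle it ran from Bcl2l1 (184 ± 1.38 FPKM, SD, n = 3) through Bak1 (94.9 ± 3.03), Mcl1 (86.1 ± 2.27), Bcl2a1b (72.8 ± 8.15), Bcl2 (43.2 ± 3.70), Bad (25.5 ± 2.51), Bcl2a1d (24.3 ± 3.34), Bcl2l11 (14.9 ± 1.13) and Bid (11.3 ± 0.943) to Bmf (1.66 ± 0.0751). Among neighbours in this order, Bad and Bcl2a1d overlapped. With LPC, Bcl2l1 (167 ± 4.98 FPKM) and Bak1 (108 ± 5.12) kept their rank, followed by Bcl2a1b (84.9 ± 28.1), Mcl1 (79.8 ± 7.30), Bcl2 (37.9 ± 5.19), Bcl2a1d (29.9 ± 10.6), Bad (27.4 ± 5.19), Bcl2l11 (17.4 ± 0.816), Bid (10.9 ± 1.12) and Bmf (0.877 ± 0.0929). There Bcl2a1b overlapped both Bak1 and Mcl1, and Bcl2a1d overlapped both Bcl2 and Bad.

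The 5 survival genes summed to 411 ± 5.10 FPKM with vehicle and 400 ± 32.1 FPKM with LPC. Bcl2l1 held 44.1% to 45.3% of that sum with vehicle and 46.7%, 42.1% and 37.5% in LPC replicates 1 to 3. The share of Mcl1 was 20.1% to 21.8% with vehicle and 18.5% to 21.9% with LPC, and that of Bcl2 9.46% to 11.5% and 7.48% to 10.7%. In LPC replicate 3 the A1 copies held 27.1% (Bcl2a1b) and 9.50% (Bcl2a1d), the highest of any library. These shares are descriptions without a test.

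Ratios within a library do not depend on how libraries are scaled. They can still carry each library's trend with GC share and length, and were not recomputed with these trends taken out. The 25 ratios of the 5 death genes to the 5 survival genes were computed after the members' values had been seen and are given without a test; they share genes and so are not independent. The groups did not overlap for 12 of the 25 (48.0%), against 36.1% of all pairs of tested genes. The 12 include all 5 ratios with Bmf, which passed the filter through its vehicle libraries alone. The 48.0% therefore cannot be read as an excess over that background. Of these 12, 6 were higher with LPC, namely Bcl2l11 and Bak1 each over Bcl2, Bcl2l1 and Mcl1. The other 6 were lower, namely Bmf over each survival gene and Bid over Bcl2a1b. All 4 ratios of Bcl2l11 and Bak1 to the A1 copies overlapped, so which survival gene was taken as denominator decided whether the groups were apart. The ratio of Bak1 to Bcl2a1b was 1.32, 1.5 and 1.13 with vehicle and 1.69, 1.41 and 0.940 with LPC, where LPC replicate 1 was the highest and LPC replicate 3 the lowest of all libraries. The ratio of Bak1 to Bcl2l1 was 0.511, 0.533 and 0.501 with vehicle and 0.645, 0.607 and 0.679 with LPC, with means of 0.515 ± 0.016 and 0.644 ± 0.036 (SD, n = 3 each). The ratio of Bcl2l11 to Bcl2l1 was 0.0742, 0.0813 and 0.0875 with vehicle and 0.106, 0.104 and 0.102 with LPC. In both ratios to Bcl2l1 every LPC library lay above every vehicle library. The ratio of Bcl2l11 to Bcl2 was 0.318, 0.320 and 0.408 with vehicle and 0.472, 0.409 and 0.512 with LPC, so that vehicle replicate 3 and LPC replicate 2 nearly met. Ratios with Bad overlapped between the groups for every survival gene, and those with Bid for all but Bcl2a1b.

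**Figure D4:**
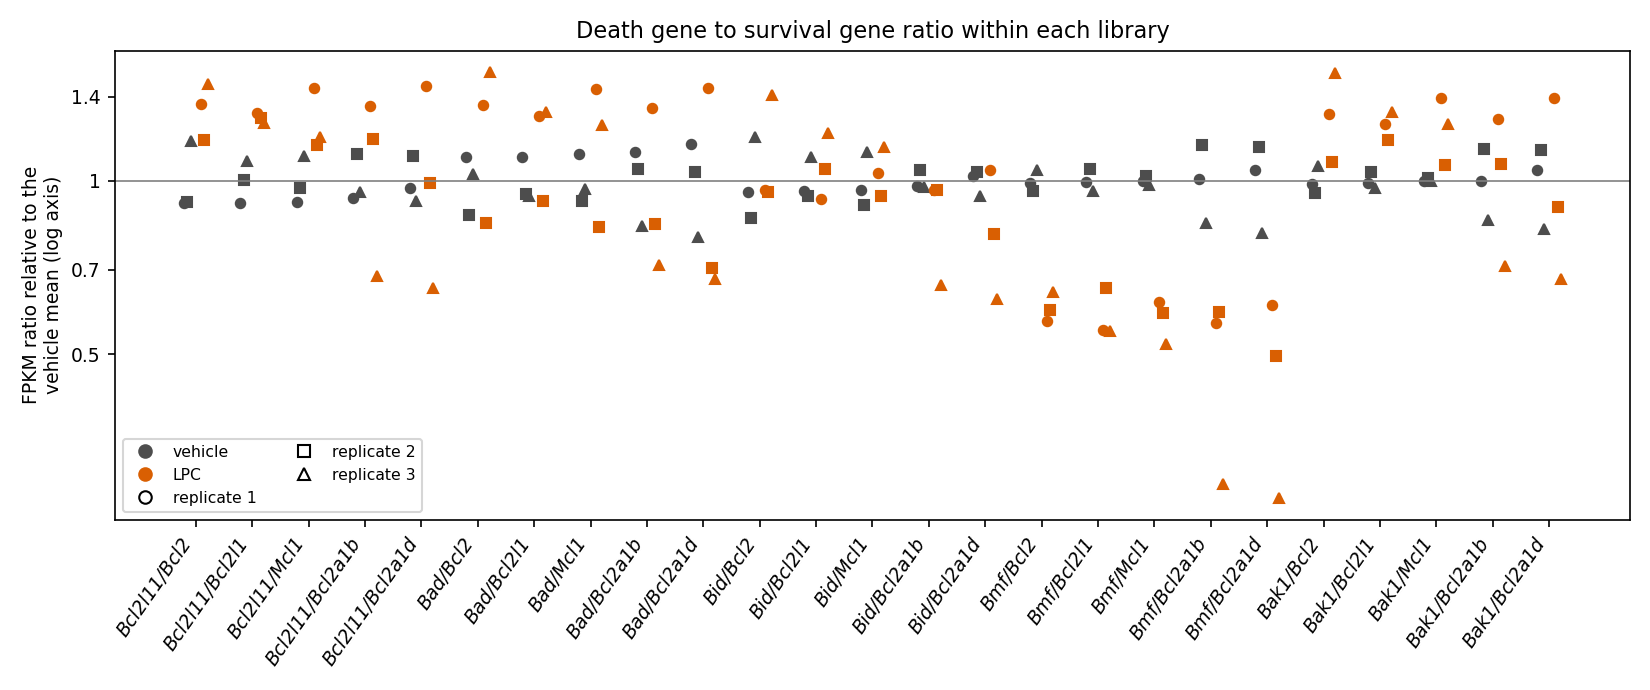
FPKM ratio of each death gene to each of the 5 survival genes within a library, relative to the vehicle mean, on a log axis, for vehicle (grey) and LPC (orange) libraries. Ratios of Bcl2l11 and Bak1 to Bcl2, Bcl2l1 and Mcl1 lie above every vehicle library in all LPC libraries but overlap over the A1 copies, and those with Bmf lie below.

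By mean absolute difference of centred log2 profiles over the 6 libraries, the genes nearest to Bcl2 among 7595 with a mean of 5 FPKM or more were Rbm33 (0.009), Trpm7 (0.014) and Slc38a1 (0.014), where the median over genes was 0.145. Those nearest to Mcl1 were Ube2d2a (0.015), Rap2b (0.016) and Ubr7 (0.018), with a median of 0.122. Those nearest to Bcl2l11 were Plk1 (0.022), Lilr4b (0.026) and Elp2 (0.027), with a median of 0.157. None of these 9 genes passed the test, with limma adjusted p-values of 0.085 to 0.51.

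Of all tested genes 13.7% were called, 5.82% higher and 7.91% lower with LPC. No list below was tested against these shares. Among the 10 other tested BCL2 family genes 1 rose, Bax, the p53-responsive partner of BAK. Its mean was 132 ± 8.88 FPKM with vehicle and 181 ± 35.4 FPKM with LPC (log2 change 0.43, limma adjusted p = 0.0361). Leaving out vehicle replicate 1, 2 or 3 ended that call (adjusted p = 0.0763, 0.114 and 0.0588), as did leaving out LPC replicate 1 or 3 (0.113 and 0.0766) and median centring (0.0737), with the log2 change between 0.30 and 0.48. The remaining 9 tested genes did not pass, and 6 of 16 were under the filter. Of 15 genes of the mitochondrial death pathway 1 rose, Endog, a mitochondrial nuclease gene, from 6.74 ± 0.910 to 10.6 ± 1.99 FPKM (log2 change 0.57, adjusted p = 0.0143). That call ended when vehicle replicate 2 (0.0522) or LPC replicate 1 (0.0804) was left out. Without LPC replicate 2 that list had 2 called genes.

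Of 5 inhibitor of apoptosis genes limma called 0, with 2 at an unadjusted p under 0.05 (Birc5 at 0.29 and Xiap at -0.27 on the log2 scale). Of all tested genes 13.7% were called and 30.1% had such an unadjusted p. Without LPC replicate 2 the count of called inhibitor genes was 2. Of 11 death receptor pathway genes, which feed into Bid, 2 fell and none rose. Over all tested genes 7.91% fell and 5.82% rose, and the list was not tested against these shares. Fas, the receptor gene, fell by 0.38 on the log2 scale (40.0 ± 1.19 FPKM with vehicle, 30.4 ± 1.70 with LPC, limma adjusted p = 0.0117), and its ligand gene Fasl fell by 0.62 (6.65 ± 0.327 and 4.0 ± 0.263 FPKM, adjusted p = 0.00188). With vehicle replicate 1 left out, the adjusted p of Fas was 0.0556.

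Of 19 survival signal genes and regulators 1 rose and 2 fell, against 5.82% and 7.91% of all tested genes. Akt1, which encodes a kinase that phosphorylates BAD and FOXO proteins, rose by 0.42 on the log2 scale (61.2 ± 3.69 FPKM with vehicle, 82.3 ± 6.28 with LPC, limma adjusted p = 0.0104). Pim2, a survival kinase gene, fell from 348 ± 17.5 to 263 ± 21.0 FPKM (-0.40, adjusted p = 0.0157), and the interleukin-7 receptor gene Il7r, upstream of Bcl2, from 25.8 ± 2.00 to 19.1 ± 2.24 FPKM (-0.42, adjusted p = 0.018). Leaving out vehicle replicate 1 ended the calls of Akt1 and Pim2 (adjusted p = 0.054 and 0.0929), and leaving out vehicle replicate 2 did so too (0.0593 and 0.0732). For Il7r the adjusted p was 0.0704 with vehicle replicate 2 left out and 0.0534 with vehicle replicate 3 left out. With vehicle replicate 1 or 2 left out the list had 1 and 0 calls in place of 3, and with LPC replicate 2 left out it had 6.

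Of 18 tested modifiers and binding partners of the members 1 rose and 0 fell, against 5.82% and 7.91% of all tested genes. The gene that rose was Dynll1, which encodes the dynein light chain that binds BIM. It was listed at 30.61, 30.01 and 32.01 FPKM with vehicle and at 38.46, 37.49 and 55.47 FPKM with LPC (log2 change 0.47, limma adjusted p = 0.0282). LPC replicate 3 was again the highest. The call of Dynll1 ended when vehicle replicate 1 (adjusted p = 0.0885) or 2 (0.0625) was left out, and with median centring (0.0594). Dynll2, singled out after its values were seen because its light chain binds BMF, did not pass (41.9 ± 4.17 and 41.5 ± 0.890 FPKM, n = 3 each; log2 change -0.01, adjusted p = 0.958). The list had 0 calls with vehicle replicate 1 or 2 left out, 5 with LPC replicate 2 left out and 2 with LPC replicate 3 left out.

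**Figure D5:**
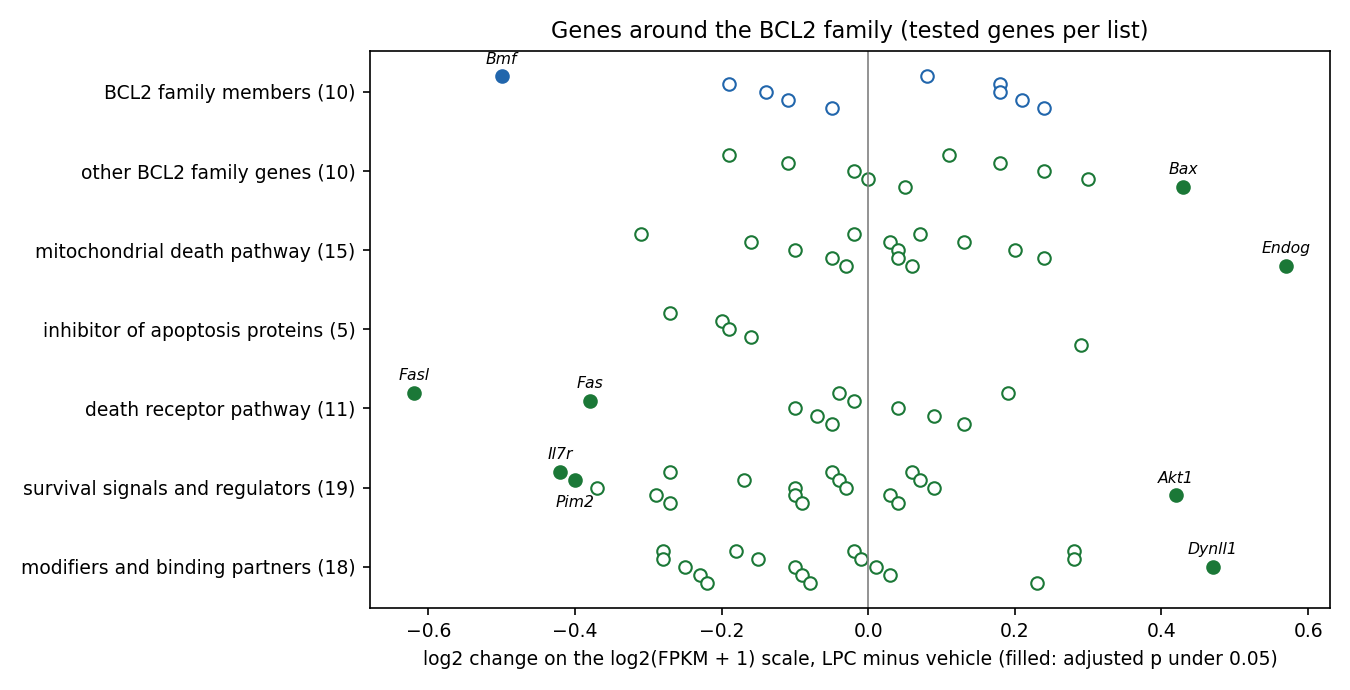
Log2 change (LPC minus vehicle) of every tested gene in the 7 lists, 1 point per gene, filled and named where the adjusted p was under 0.05. Filled points are few in each list, with Bmf at -0.50 among the members, Fasl (-0.62), Il7r (-0.42), Pim2 (-0.40) and Fas (-0.38) to the left, and Endog (0.57), Dynll1 (0.47), Bax (0.43) and Akt1 (0.42) to the right.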

How the data were processed

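The 6 libraries (3 vehicle, 3 LPC) were made from total RNA and, per the labels, sequenced on a BGISEQ-500 instrument. Alignment to GRCm38 used Bowtie2, and the authors took FPKM from RSEM, as the labels' protocols state; their versions: not given in the sources used here. FPKM as deposited carry at most 2 decimals. Of the gene identifiers 99.3% matched the RefSeq table of GRCm38.p6, which gave coordinates and promoter windows. Lengths and GC shares came from GENCODE transcripts (98.8% of tested genes).

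Groups were set from the agent in the labels. The 10138 genes that reached 1 FPKM in at least 3 libraries were compared on log2(FPKM + 1) by a two-sided limma-trend fit with group alone as its term (limma version 3.58.1, R version 4.3.3), and the procedure was tested on simulated data. The exact permutation test used SciPy 1.17.1. All members are named, with up to 4 called genes of each other list and the 3 genes nearest in profile to Bcl2, Mcl1 and Bcl2l11. Ratios, motifs and shared windows were chosen after the values were seen. Alternatives were quantile normalization, median centring, no filter, a minimum mean of 5 FPKM, a pseudocount of 0.1, a replicate block, removal of GC and length trends (splines with 4 degrees of freedom) and leaving out each library. With a library left out, the same 10138 genes were tested and the filter was not applied again. The members and lists were chosen with earlier results of these data known. A gene of the survival signal list is not reported here.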

Additional observations from a re-analysis of the deposited data

How the results depend on the processing

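Of 129 member changes recomputed under 13 alternatives, 120 kept direction and side of the threshold, 2 newly passed and 7 changed sign without passing. With GC and length trends taken out, Bcl2l1 (-0.16) and Bcl2l11 (0.28) passed and Bad was -0.03; Bid was 0.01 with quantile normalization. When each library was left out, values ran from -0.08 to 0.34 for Bcl2a1b, -0.01 to 0.49 for Bcl2a1d, -0.01 to 0.25 for Bad, -0.12 to 0.01 for Bid and -0.06 to 0.38 for the A1 sum. The members called numbered 0 at a mean FPKM of 5 or more, where Bmf was not tested, and 3 with these trends taken out. All genes called numbered 191 with no filter, 2329 with these trends taken out, and 513 to 2026 with 1 library left out. The share of calls higher with LPC was 42.4%, 53.1% with median centring and 56.5% with no filter.

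With no filter the counts were 0 for other BCL2 family genes, the mitochondrial pathway, survival signals and modifiers, and 1 for death receptors. With the trends taken out they were 5 for other BCL2 family genes, 3 for the mitochondrial pathway, 1 for inhibitors of apoptosis, 6 for survival signals and 4 for modifiers. Other BCL2 family genes had 2 with quantile normalization and 0 with median centring. With 1 library left out, counts ran from 0 to 1 for other BCL2 family genes, 0 to 2 for the mitochondrial pathway, 0 to 2 for inhibitors of apoptosis, 1 to 2 for death receptors, 0 to 6 for survival signals and 0 to 5 for modifiers. The causes were not tested; fits with fewer libraries also have less power.

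Deviations from the group means of same-numbered libraries correlated at 0.018, 0.562 and 0.406 for replicates 1 to 3. Vehicle replicate 2 with LPC replicate 3 gave -0.498, and vehicle replicate 3 with LPC replicate 2 gave -0.447. Vehicle replicate 1 gave between -0.088 and 0.065 with the LPC libraries, which does not decide whether the numbers pair the libraries. The labels do not say so either, and the main fit has no such term. With a replicate block 2841 genes were called, with 2 other BCL2 family genes, 3 of the mitochondrial pathway, 2 inhibitors of apoptosis, 7 survival signals and 9 modifiers; among the members Bmf alone passed.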
